A study of Drosophila melanogaster with 12 samples.

Results

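The transcripts of the proteasome subunit genes were followed in γ neurons of the Drosophila melanogaster mushroom body during early metamorphosis. Genes were taken from the deposited expression table by symbol: those whose symbol, or current FlyBase symbol, starts with Prosalpha or Prosbeta, or with Rpn or Rpt and a digit. The rule found 48 of 17050 genes. Of these, 47 carry such a symbol in the table, and 1, Prosalpha1R, is listed there as CG30382. They comprise 32 genes of the standard complex (7 Prosalpha, 7 Prosbeta, 6 Rpt and 12 Rpn genes) and 16 genes whose names mark them as duplicates of a subunit.

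The 12 libraries cover 4 ages, 6, 12, 18 and 24 h from puparium formation. Each age has 3 libraries, lettered A, B and C (n = 3, fewer where replicates B and C are taken alone). Each was prepared from 1000 DsRed-positive cells sorted from dissociated brains of pupae kept at 25 °C, with the sexes taken at random. Every library had the same genotype. It was y,w/+, carried 1 copy of UAS-RedStinger, a red nuclear marker, and had the driver 71G10 over a UAS-HR51 RNAi transgene, so that the marker and the knockdown of Hr51 (a gene for a nuclear receptor) were both under the control of 71G10. No library of another genotype was analysed here, so time was the only comparison, and each difference is one between ages of knockdown neurons. Whether replicates were dissected separately is not stated in the labels, so p-values reflect only how far these libraries scatter, some of which may be technical.

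The 26S proteasome degrades proteins that carry ubiquitin chains. Its 20S core particle is a barrel of stacked rings, in which the α subunits (Prosalpha genes) form the gated ends and the β subunits (Prosbeta genes) the inner rings with the proteolytic sites. The 19S regulatory particle caps the barrel: the Rpt subunits are a ring of ATPases that unfold substrates, and the Rpn subunits bind ubiquitin, remove it or hold the particle together. In fly γ neurons, which prune their axons at the onset of metamorphosis and later regrow them, mutants of the ubiquitin-activating enzyme and of 19S subunits are known to block pruning.

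Values are reads per 10000000 mapped reads, as scaled by the authors. Libraries held 1597241 to 3752666 mapped reads, and 7521 to 8217 genes had at least 1 read. Hr51 itself was read in every library, at 2661 to 5666 (median 3969), and with no control genotype this does not measure the knockdown. Of 18 Kenyon cell and 11 neuronal markers, ey was at 7700 to 12568 over the libraries, dac at 14366 to 23675, Fas2 at 9352 to 13069 and elav at 12285 to 20359. Others of these lists were low in some libraries: sNPF was at 0 to 883, prt at no more than 379.7, DopEcR at 18.7 to 2686, ab at 106 to 1984, Mef2 at 970.4 to 14051 and Rbp9 at 24.0 to 4648. Of 11 glial markers, repo (0 to 93.2) and moody (0 to 95.4) were low, and loco, Gs2 and Eaat1 reached 144, 127 and 124. In contrast, nrv2 of that list was at 1202 to 4690. Of 8 hemocyte and 9 testis markers 5 and 6 were at 0 in every library. Others of these were read: crq at 38.0 to 459, Pxn at 5.33 to 545 and betaTub85D at 43.2 to 468. Within each time, correlations between libraries over all genes tested were 0.71 to 0.87, lowest for replicate A of 6 h (0.74 with B and 0.71 with C, against 0.84 between B and C). Of the 12 libraries, 8 were closest to a library of another time, and replicate A of 6 and 12 h had stood apart in an earlier analysis. Counts of calls, medians and the changes of the named genes are therefore given also for replicates B and C alone. The choice of this subset drew on these same data, and its p-values do not allow for that choice. In sorted pools, fewer cells with a transcript and less of it per cell cannot be told apart.

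The subunit genes were present at similar, moderate levels. Testing required 3 or more libraries with a value of 50 or above, and 33 of the 48 members passed this filter. Prosalpha1 and Prosalpha1R, which are neighbours on chromosome 2R (build dm6) and share most of their span in the table (7827303 to 7831788 and 7827303 to 7831771), had equal values in all 12 libraries. They are treated as 1 signal of uncertain origin, which leaves 32 signals tested. That signal was low, at 25.0 to 109.7, with 197 reads over all libraries, and the sources used here do not say how reads of overlapping genes were assigned.

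The other 31 genes had means over the libraries of 697 to 2950.4 (median 1715), with 92 to 1108 reads per gene and library. Per kilobase of exon their means were 512 to 2858 (median 1311). A 3′-end method makes reads depend less on length than this scale assumes, so an order of genes of unlike length is uncertain. On the per-kilobase scale Prosalpha5 (2858), Prosbeta5 (2590.3) and Prosalpha3 (2365) had the highest levels. The lowest were those of Rpn1 (512) and Rpn2 (584), which encode the long scaffold proteins of the 19S base, and of Rpn5 (686), a lid protein. The exons of Rpn1 and Rpn2 cover 3041 and 3412 bases, and their means not divided by length were 1557 and 1993. Without that division the lowest mean was that of Prosbeta4 (697).

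Each gene also kept close to its own level. Between the lowest and the highest of the 12 libraries, the 31 genes differed 1.53- to 2.93-fold (median 1.96), and 18 of them differed less than 2-fold. The standard deviation (SD) of log2(value + 1) over the 12 libraries had a median of 0.283 for the 31 genes, against 0.672 for the 6969 genes tested and 0.422 for the 1723 genes whose means lie in the same range. With the low Prosalpha1 signal included, all 32 signals were below the median SD of the genes tested, 30 were among the 25% of genes with the smallest SD and 20 among the 10%. Between libraries of the same time the median SD of the 31 genes was 0.262. If every read were an independent molecule, counting would give an SD of about 0.0721, but copies made by amplification cannot be set apart here, so the counting error may be larger.

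**Figure D1:**
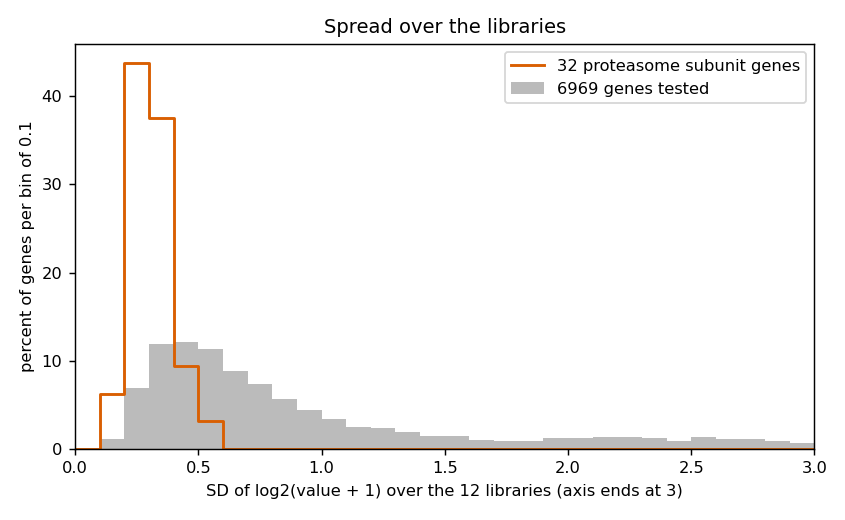
Spread of each gene over the 12 libraries. The x axis is the SD of log2(value + 1) over the libraries and the y axis the percent of genes per bin of 0.1; the line shows the 32 subunit signals and the grey bars the 6969 genes tested. The subunit genes lie between 0.166 and 0.589, at the low end of the distribution, whose median is 0.672.

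The members with the smallest spread were Prosalpha7, an α-ring subunit, with an SD of 0.166, and Rpn6, with 0.192. Prosalpha7 was at 1390 to 2214, with means of 1772, 1673, 1655 and 1706 at 6, 12, 18 and 24 h. Those with the largest, apart from the low Prosalpha1 signal, were Rpn10 (0.468), the ATPase gene Rpt2 (0.429) and Rpn11 (0.427). Rpt2 was at 1960, 1975 and 1509 at 6 h, at 1955, 1268 and 1403 at 12 h, at 2463, 1456 and 1019 at 18 h, and at 1296, 899 and 1867 at 24 h. Its highest and lowest values thus stood in neighbouring times, and each time overlapped every other.

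**Figure D2:**
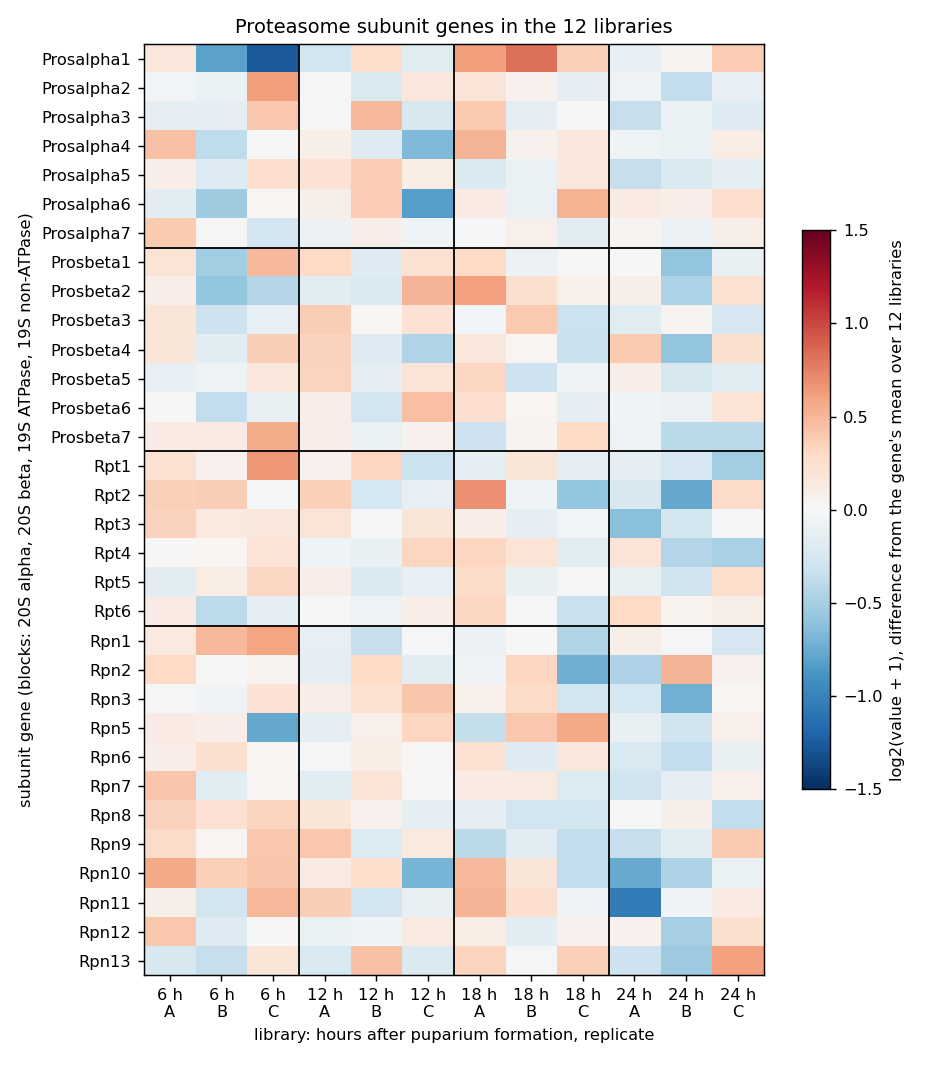
Values of the 32 subunit signals in the 12 libraries. Each row is a gene, each column a library; colour gives log2(value + 1) less the gene's own mean over the libraries, and lines separate the 4 times and the 4 gene groups. Most cells are pale, the columns of 24 h replicates A and B hold more blue than those of 6 h replicates A and C, and the low Prosalpha1 signal varies most.

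The duplicates, several of which are known as testis-type subunits, were at or near 0. Besides Prosalpha1R, 15 duplicates were listed, and none of them passed the filter. In 10 of them (Prosalpha3T, Prosalpha4T1, Prosalpha6T, Prosbeta2R1, Prosbeta2R2, Prosbeta4R1, Prosbeta4R2, Prosbeta5R1, Prosbeta5R2 and Rpt4R) no read was found in any library. A count of 0 over the 12 libraries allows a level of up to 0.997 per 10000000 mapped reads, taking 3 reads as the limit and covering counting error only. Prosalpha4T2 and Rpn12R had 1 read each over all libraries and Rpt3R had 2. Rpt6R had 19 reads, in 3 libraries, with its highest value of 51.0 in replicate A of 24 h. Rpn13R had 56 reads, in 7 libraries, with its highest value of 69.3 in replicate B of 6 h, and its span overlaps CG15465 and rg on the same strand, so the origin of these reads is uncertain. Each standard subunit of the 31 thus exceeded every one of these 15 duplicates in every library, the lowest standard value being 449 and the highest duplicate value 69.3.

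Together the subunit genes took up about the same share of the reads at each time, with the lowest mean at 24 h. The 32 signals summed to 0.588%, 0.510% and 0.613% of mapped reads in replicates A, B and C of 6 h, and to 0.565%, 0.546% and 0.536% at 12 h. At 18 h the share was 0.595%, 0.542% and 0.505%, and at 24 h 0.480%, 0.458% and 0.525%. The means were 0.570% ± 0.0536 at 6 h and 0.488% ± 0.0339 at 24 h (SD, n = 3), and the groups overlap, since replicate B of 6 h lies below replicate C of 24 h, with and without replicate A. The core particle took 0.231%, 0.237%, 0.236% and 0.208% on average at the 4 times, and the regulatory particle 0.340%, 0.312%, 0.312% and 0.280%. The core shares of 6 and 24 h overlap. For the regulatory genes alone they do not: the share was 0.350%, 0.316% and 0.354% at 6 h and 0.264%, 0.265% and 0.309% at 24 h. The ratio of regulatory to core reads was 1.20 to 1.62 over the libraries, 1.49 ± 0.127 at 6 h and 1.34 ± 0.107 at 24 h. In the same libraries the summed level of 11 neuronal markers was 84239 to 114136 at 6 h and 145309 to 183342 at 24 h, and that of 18 Kenyon cell markers was 206708 to 260476 and 298989 to 336035. The largest part of the neuronal sum was fne (means 50564 at 6 h and 84695.5 at 24 h). Of the same list nrv3 (1967 and 10918) and para (2621 and 6672) were also higher at 24 h, while nSyb (4740 and 5180.5) and Syx1A (4366 and 4510) differed little. The Kenyon cell sum was carried mainly by mamo (means 103029 at 6 h and 162995 at 24 h), while Imp (17687 and 11189), dac (19628 and 16838) and Dop1R2 (3078 and 744) of the same list were lower at 24 h. The part of these markers in the lower subunit share was not tested.

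**Figure D3:**
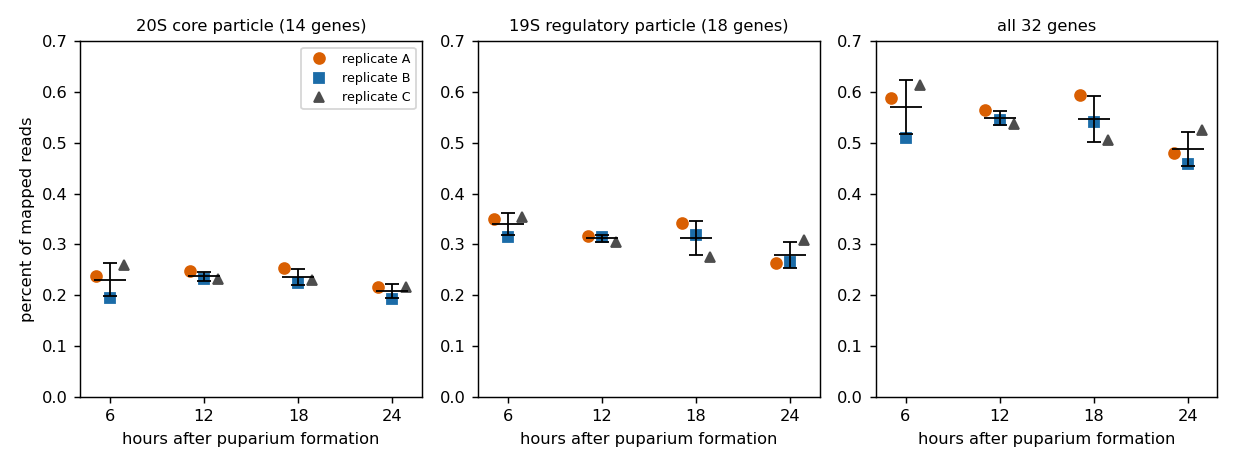
Percent of mapped reads taken by the 14 core, the 18 regulatory and all 32 subunit signals, by hours after puparium formation. Points are libraries, and bars the mean and SD of 3 replicates; the 24 h means are the lowest in each panel, at 0.208, 0.280 and 0.488%, and the points of 6 and 24 h overlap for the core and for all 32.

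No subunit gene was called as changed between any of the times by the test used, which called 0% of all genes too. limma with an intensity trend was fitted on log2(value + 1) over all genes and all 12 libraries, and a gene was called at a Benjamini-Hochberg adjusted p under 0.05. In the 5 comparisons (6 to 12, 12 to 18, 18 to 24 and 6 to 24 h, and any change over the 4 times) limma called 0 of the 32 signals and 0% of the 6969 genes. At an unadjusted p under 0.05 the counts of subunit signals in these comparisons were 1, 0, 0, 4 and 0, against 4.75%, 6.14%, 6.95%, 13.5% and 9.9% of all genes. In none of the 5 did the share of members stand above that of all genes. edgeR on the reads recovered from the values also called 0 signals and 0% of all genes in all 5, and DESeq2 called 0 signals against 0.043%, 0.0717%, 0.33%, 2.83% and 1.74% of all genes.

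In replicates B and C alone limma called many other genes, and still no subunit gene. Of all genes it called 5.6%, 0.359%, 0.129%, 10.1% and 9.44% in the same order of comparisons, and 0 of the 32 signals in each. The smallest adjusted p of a subunit gene in any fit that was run, 0.0892, was that of Prosbeta7 between 6 and 24 h in these 8 libraries, with limma. A p above the threshold does not show that levels were equal, and the intervals give the sizes that remain possible. In the 12 libraries the 95% interval of the log2 change lay within 1 of 0 for 29, 29, 28 and 24 of the 32 signals from 6 to 12, 12 to 18, 18 to 24 and 6 to 24 h. Among all genes tested this held for 24.2%, 22.2%, 21.8% and 19.1%, and among the 1723 genes of similar level for 55.0%, 51.4%, 49.9% and 44.8%. With replicates B and C alone it held for 23, 28, 23 and 18 signals, against 15.3%, 20.1%, 20% and 13.7% of all genes. For most subunit genes a change of 2-fold or more between times lay outside the interval of these data.

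Although no gene was called, more of the members were lower at 24 h than at 6 h. From 6 to 24 h the median log2 change was -0.24 over the 32 signals and -0.00 over all genes tested, and 25 of 32 were lower at 24 h, against 50.2% of all genes. The difference between both medians was -0.23, and -0.21 with edgeR and with DESeq2. It was -0.29 in replicates B and C, where 20 of 32 were lower, against 46.3% of all genes. Single libraries were not uniform. In replicates A, B and C of 6 h, 23, 14 and 24 of the 32 signals were above their own mean over the libraries. The shares of all genes there were 58.3%, 47.8% and 49.4%. At 24 h the counts were 10, 6 and 18, against 51.3%, 49.5% and 53.7% of all genes. By group, 10 of 14 core signals were lower (median -0.07) and 15 of 18 regulatory genes (median -0.34). The difference between these groups has no test here. Between 6 and 12 h the median of the members was -0.08 against 0.07 for all genes, and 19 of 32 were lower (44.1% of all genes). For this step the medians in replicates B and C were -0.01 and 0.16, and 17 of 32 were lower (42.2%). Between 12 and 18 h the medians were 0.01 and 0.03 and 15 of 32 were lower (48%), and here the members' median turned negative under median-ratio and TMM scaling (-0.03 and -0.02), as the median of all genes moved with it (-0.01 and 0.00). It was negative in replicates B and C too, at -0.08 against -0.01 for all genes, and 20 of 32 were lower (50.7%). From 18 to 24 h the members' median was -0.24 against -0.11, and 25 of 32 were lower, against 57.5% of all genes. That step depended on the libraries: in replicates B and C the medians were -0.08 and -0.08. Over the 4 times, 16 signals had their highest mean at 6 h and 1 at 24 h (23.4% and 22.1% of all genes), and 17 their lowest at 24 h (32.5%). All comparisons from 6 h share its libraries, and those to 24 h share the 24 h libraries.

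**Figure D4:**
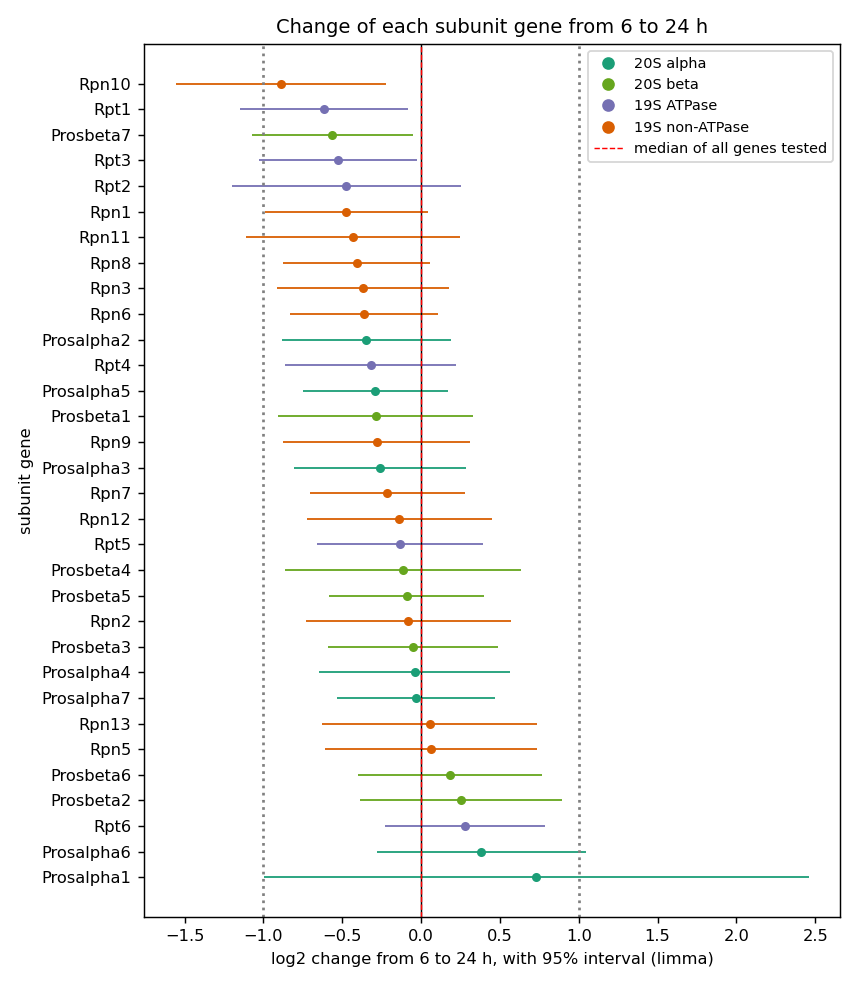
Log2 change of each of the 32 subunit signals from 6 to 24 h, with its 95% interval from limma, in order of size and coloured by group. Dotted lines mark a change of 1 in either direction and the dashed line the median of all genes tested (-0.00); 25 points lie below 0, from -0.89 for Rpn10, and the widest interval is that of the low Prosalpha1 signal.

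The catalytic subunits are described first. Prosbeta1 carries the caspase-like site, Prosbeta2 the trypsin-like and Prosbeta5 the chymotrypsin-like site. Prosbeta1 (chromosome 2R, 16013805 to 16014787, minus strand) was at 1925, 1170 and 2342 in replicates A, B and C of 6 h, and at 2065, 1466 and 1970 at 12 h. It was at 2060, 1578 and 1657 at 18 h and at 1684, 1107 and 1551 at 24 h. Replicate B was the lowest library at each time, and the times overlap. Its log2 change from 6 to 24 h was -0.29 ± 0.29 (SE; limma adjusted p = 0.725), and -0.34 in replicates B and C. It rests on single libraries: it was -0.58 without replicate B of 6 h, -0.08 without replicate C of 6 h and -0.11 without replicate B of 24 h. It overlaps CG8389 on the opposite strand, whose mean was 618.

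Prosbeta2 (chromosome 3L, 14999951 to 15001319, plus strand) was at 1465, 914 and 1008 at 6 h, and at 1222, 1171 and 1937 at 12 h. It was at 2090, 1608 and 1439 at 18 h and at 1449, 984 and 1598 at 24 h. Its mean was the highest at 18 h (1712 ± 338) and the lowest at 6 h (1129 ± 294; SD, n = 3), an order unlike that of most members, and the values overlap. Between 6 and 24 h it changed by 0.25 ± 0.30 on the log2 scale (SE; limma adjusted p = 0.785), and by 0.39 in replicates B and C. The change was 0.45 without replicate A of 6 h, 0.46 without replicate B of 24 h, 0.12 without replicate B of 6 h and 0.11 without replicate C of 24 h. Reck, on the opposite strand, had a mean of 816.

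Prosbeta5 (chromosome 2R, 10819978 to 10821178, plus strand) had the highest mean of all members, 2950.4, with 8779 reads over the libraries. It was at 2675, 2769 and 3293 at 6 h, at 3690, 2670 and 3341 at 12 h, at 3608, 2354 and 2785 at 18 h, and at 3133, 2468 and 2618 at 24 h. No time stood apart. Its log2 change between 6 and 24 h was -0.09 ± 0.23 (SE), with a 95% interval of -0.58 to 0.40 (limma adjusted p = 0.927). It was -0.25 in replicates B and C, -0.15 when replicate A of 6 h was left out, -0.19 when that of 24 h was, -0.02 without replicate B of 24 h and 0.00 without replicate C of 6 h. The overlapping Lsm10 had a mean of 6.46.

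**Figure D5:**
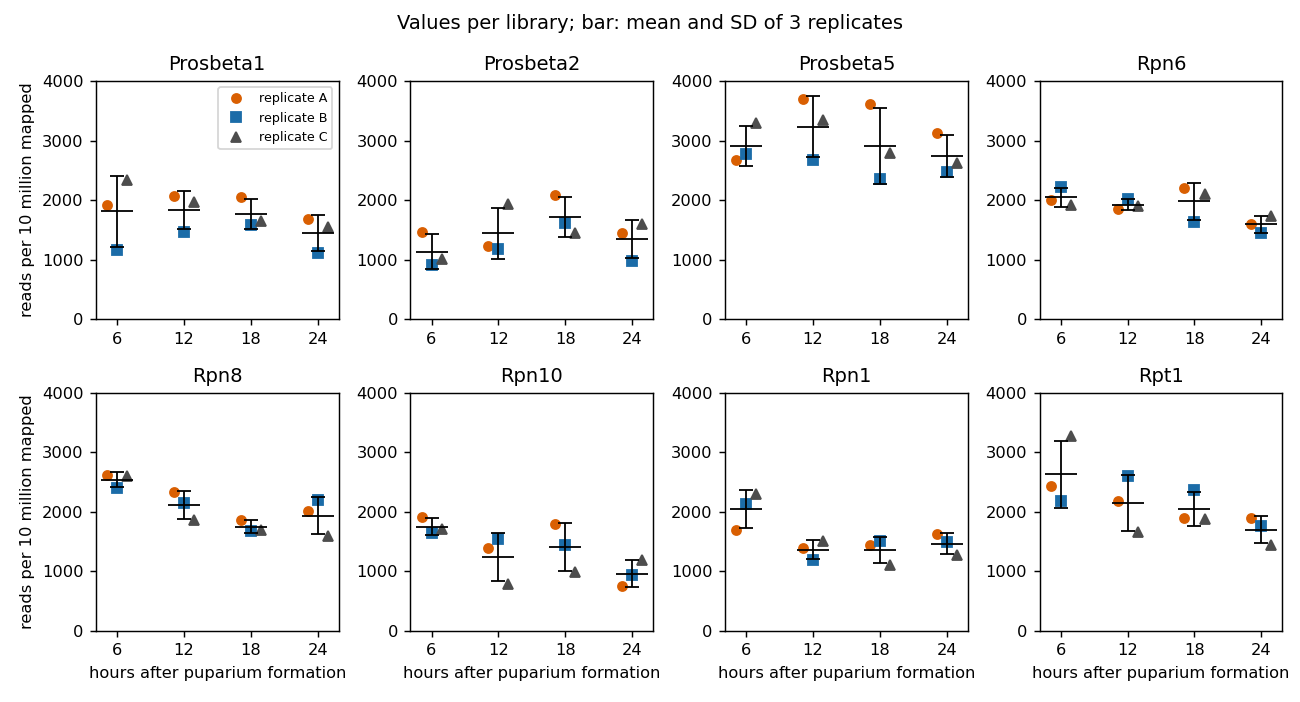
Values of 8 subunit genes, in reads per 10000000 mapped reads, by hours after puparium formation. Points are libraries (shape and colour give the replicate), and bars the mean and SD of 3 replicates. Prosbeta5 stays between 2354 and 3690, Rpn10 has its lowest mean at 24 h (960.1), and Rpn1 and Rpn8 their highest at 6 h (2043 and 2539.9).

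Among the other core genes, Prosbeta7, a β-ring subunit without a catalytic site, had the smallest p from 6 to 24 h. It lies on chromosome 3R (5357012 to 5358364, minus strand), and no listed gene overlaps it. Its values were 2124, 2116 and 2861 at 6 h, 2075, 1807 and 2029 at 12 h, 1566, 1992 and 2384 at 18 h, and 1837, 1471 and 1471 at 24 h. All 24 h libraries lay below all 6 h libraries. The log2 change was -0.56 ± 0.24 (SE; 95% interval -1.08 to -0.05), and with limma the adjusted p was 0.327. In replicates B and C it was -0.74 ± 0.26.

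Prosalpha4 and Prosalpha5, both of the α ring, were named by their p from 12 to 18 h, in opposite directions. Prosalpha4 was at 1779, 1005 and 1315 at 6 h, at 1385, 1138 and 826 at 12 h, at 1865, 1371 and 1459 at 18 h, and at 1250.2, 1221 and 1416 at 24 h. Its log2 change from 12 to 18 h was 0.51 ± 0.29 (SE; limma adjusted p = 0.762), 0.54 in replicates B and C, and 0.30 without replicate C of 12 h. Both times overlap. Prosalpha5 was at 2864, 2342 and 3168 at 6 h, at 3107, 3467 and 2877 at 12 h, at 2294, 2494 and 2988 at 18 h, and at 2097, 2294 and 2419 at 24 h. From 12 to 18 h it changed by -0.29 ± 0.22 on the log2 scale (SE; limma adjusted p = 0.795) and by -0.21 in replicates B and C, and replicate C of 18 h lay within the range of 12 h.

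Of the 19S ATPase genes, Rpt1 (chromosome 2R, 7652440 to 7653954, minus strand) had the smallest p from 6 to 24 h. It was at 2434, 2182 and 3268 at 6 h, at 2178, 2597 and 1668 at 12 h, at 1891, 2371 and 1880 at 18 h, and at 1898, 1753 and 1449 at 24 h. Every 24 h library was below every 6 h library. The log2 change was -0.62 ± 0.25 (SE; 95% interval -1.15 to -0.08; limma adjusted p = 0.306), and -0.74 ± 0.30 in replicates B and C (limma adjusted p = 0.138). Its span overlaps CG17985 on the same strand (mean 2571), and the values of both genes were equal in 0 libraries. The sources used here do not say how reads of both genes were assigned, so its level is uncertain.

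Rpt4, another ATPase gene of the ring, was named from 18 to 24 h. It was at 1878, 1929 and 2179 at 6 h, at 1812, 1747 and 2369 at 12 h, at 2368, 2177 and 1687 at 18 h, and at 2164, 1395 and 1347 at 24 h. Replicate A of 24 h lay within the range of 18 h while B and C were below it. The log2 change from 18 to 24 h was -0.37 ± 0.26 (SE; limma adjusted p = 0.810), and -0.48 in replicates B and C. With 24 h replicate A left out it was -0.58, and with replicate C of that time left out -0.24. Rpt6 was the ATPase gene with the opposite direction, with means of 1766 ± 314 at 6 h and 2128 ± 199.9 at 24 h (SD, n = 3); on the log2 scale it was higher by 0.28 ± 0.24 (SE), which limma did not call (adjusted p = 0.666), and by 0.33 in replicates B and C.

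The ubiquitin receptors of the 19S particle are Rpn1, Rpn10 and Rpn13. Rpn10 (chromosome 3L, 21537000 to 21538582, plus strand, with no overlapping gene) showed the largest difference of all members from 6 to 24 h. Its values were 1904, 1644 and 1703 at 6 h and 1399, 1536 and 788 at 12 h. They were 1795, 1447 and 989 at 18 h and 755, 930.3 and 1195 at 24 h. All 6 h libraries lay above all 12 h and all 24 h libraries, while 18 h overlapped every other time. The log2 change from 6 to 24 h was -0.89 ± 0.31 (SE; 95% interval -1.56 to -0.22), which is 0.540 of the 6 h level, and the limma adjusted p was 0.255. It was -0.67 in replicates B and C (limma adjusted p = 0.296) and between -1.06 and -0.73 when any 1 library was left out. From 6 to 12 h it changed by -0.55 ± 0.31 (limma adjusted p = 0.991), by -0.60 in replicates B and C and by -0.25 without replicate C of 12 h. Between 18 and 24 h the change was -0.54 ± 0.31 (limma adjusted p = 0.760), -0.18 in replicates B and C and -0.34 without replicate A of 18 h.

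Rpn1 (chromosome 3L, 19915051 to 19918160, plus strand), which also holds a docking site for ubiquitin-like shuttle proteins, had the smallest p from 6 to 12 h. It was at 1689, 2137 and 2304 at 6 h and at 1399, 1195 and 1500.3 at 12 h. At 18 h it was at 1440, 1515 and 1113, and at 24 h at 1623, 1497 and 1278. Its 6 h libraries were above those of every later time. The log2 change from 6 to 12 h was -0.58 ± 0.24 (SE; 95% interval -1.10 to -0.06; limma unadjusted p = 0.0319, adjusted 0.985), and from 6 to 24 h it was -0.47 ± 0.24 (limma adjusted p = 0.417). In replicates B and C these changes were -0.73 ± 0.28 (limma adjusted p = 0.181) and -0.68 ± 0.28 (limma adjusted p = 0.160). Rpn13, the third receptor, had means of 1234 ± 247 at 6 h and 1347 ± 609 at 24 h (SD, n = 3), which differ by 0.05 ± 0.32 on the log2 scale (SE; limma adjusted p = 0.970) and by 0.12 in replicates B and C.

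Rpn11 and Rpn8 are partners in the 19S lid, and Rpn11 is the enzyme that removes ubiquitin chains from substrates. Rpn11 (chromosome 2L, 5058404 to 5059790, minus strand) was at 2210, 1713 and 2936 at 6 h, at 2684, 1703 and 1921 at 12 h, at 2949, 2481 and 2003 at 18 h, and at 1005, 1993 and 2262 at 24 h. Its low mean at 24 h rests on replicate A, which lay far below B and C. Its log2 change between 18 and 24 h was -0.56 ± 0.32 (SE; limma adjusted p = 0.760), -0.20 without that library and -0.07 in replicates B and C.

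Rpn8 (chromosome 2R, 24400028 to 24404527, plus strand), known also as Mov34 and 1 of the subunits whose loss blocks pruning, was at 2623, 2398 and 2598 at 6 h and at 2338, 2142 and 1857 at 12 h. It was at 1869, 1684 and 1701 at 18 h and at 2011, 2193 and 1591 at 24 h. Each 6 h library was above all later libraries. The log2 change was -0.27 ± 0.22 from 6 to 12 h (SE; limma adjusted p = 0.995) and -0.41 ± 0.22 from 6 to 24 h (limma adjusted p = 0.440), and -0.32 and -0.42 in replicates B and C. Slik, on the opposite strand, was itself well read, with a mean of 1436, and without a stated strand rule the reads of both genes cannot be told apart.

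Rpn6 (chromosome 2R, 14750166 to 14752910, minus strand), a lid subunit that clamps the 19S to the α ring and another whose mutants fail to prune, was among the steadiest members. It was at 1999, 2217 and 1916 at 6 h, at 1852, 2021 and 1894 at 12 h, at 2199, 1629 and 2107 at 18 h, and at 1597, 1449 and 1736 at 24 h. The 24 h libraries lay below the 6 h libraries and overlapped those of 18 h. The log2 change from 6 to 24 h was -0.36 ± 0.22 (SE; 95% interval -0.83 to 0.11; limma adjusted p = 0.510), and -0.38 in replicates B and C. The overlapping ave had a mean of 77.7.

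Rpn9, a further lid gene, was named from 12 to 18 h. It was at 1387, 1165 and 1503 at 6 h, at 1509, 987 and 1257 at 12 h, at 863, 1017 and 885 at 18 h, and at 893, 1013 and 1496 at 24 h. The values at 18 h were close together and overlapped the lowest of 12 h. The log2 change from 12 to 18 h was -0.42 ± 0.28 (SE; limma adjusted p = 0.777), -0.23 in replicates B and C, and -0.28 without replicate A of 12 h.

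Counted over all members, groups that did not overlap were mostly those in which 6 h was the higher time. From 6 to 12 h every library of the later time was below every one of the earlier for 4 of 32 signals (Prosbeta7, Rpn1, Rpn8 and Rpn10), against 3.19% of all genes, and above for 0 (4.89%). The counts from 12 to 18 h were 0 below (5.91%) and 1 above, the low Prosalpha1 signal (7.53%), and from 18 to 24 h 0 below (9.63%) and 0 above (6.46%). From 6 to 24 h they were 7 below (Prosbeta7, Rpn1, Rpn6, Rpn8, Rpn10, Rpt1 and Rpt3; 7.52%) and 1 above, Prosalpha6 (8.25%). The 7 make up 21.9% of the members, above the share of all genes. In replicates B and C alone, where fewer libraries make such a gap more frequent, 10 were below from 6 to 24 h, or 31.3% of members against 23.7% of all genes. Rpt3, an ATPase gene, was at 2020, 1759 and 1791 at 6 h and at 1031, 1313 and 1562 at 24 h, and its log2 change was -0.53 ± 0.24 (SE; limma adjusted p = 0.344), against -0.31 in replicates B and C. Prosalpha6, of the α ring, was at 1228, 951 and 1402 at 6 h and at 1500.3, 1481 and 1634 at 24 h (0.38 ± 0.31, limma adjusted p = 0.645; 0.43 in replicates B and C).

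Of the 31 genes, 15 overlap another listed gene, 14 on the opposite strand and 1, Rpt1, on the same strand. The counting's strand rule is not stated in the sources used here, and values of these genes are therefore uncertain where the neighbour is well read, as for Rpn8, Prosalpha2, Prosbeta1, Prosbeta2, Rpt1, Rpt4 and Rpt5. The neighbour's mean was under 100 for Prosbeta4, Prosbeta5, Rpn6, Rpt2 and Rpt6.

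Genes that serve the proteasome were counted from 6 lists. The chaperones that assemble the particle (6 genes tested), its regulators and activators (10), transcription factors known to control subunit genes in flies or mammals, listed together with Keap1 (7 with Keap1), ubiquitin with its activating and conjugating enzymes (17), cullin ligases (18 of 19 found) and deubiquitinases with the segregase TER94 (13) had 0 genes called in either direction by limma in any pairwise comparison of the 12 libraries, as did all genes. In replicates B and C the first 3 lists also had 0 genes called in any step. From 6 to 24 h the ubiquitin list had 3 lower genes, the cullin ligases 1 and the deubiquitinase list 1, with 0 higher, against 4.78% of all genes called lower. From 6 to 12 h the ubiquitin list again had 3 lower genes, against 2.3% of all genes, and the other 2 lists had 0.

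The 3 ubiquitin genes were Ubi-p63E and Ubi-p5E, which encode ubiquitin as head-to-tail repeats, and eff, a ubiquitin-conjugating enzyme. Ubi-p63E was at 4127, 13862 and 11182 at 6 h, at 11243, 7168 and 5370 at 12 h, at 5430, 4008 and 5362 at 18 h, and at 5879, 6237 and 5102 at 24 h. The value was high in replicates B and C of 6 h and in replicate A of 12 h, and replicate A of 6 h was at the level of the later times. Its log2 change between 6 and 24 h in replicates B and C was -1.14 ± 0.23 (SE; limma adjusted p = 0.00299), and over the 12 libraries -0.59 ± 0.37 (limma adjusted p = 0.517). Ubi-p5E had the same order of libraries at 6 h (5277, 10022 and 9441) and values of 3837, 3525 and 4463 at 24 h. Its change in replicates B and C was -1.29 ± 0.22 (limma adjusted p = 0.000961), and over the 12 libraries -1.02 ± 0.34 (limma adjusted p = 0.227). Both genes encode ubiquitin repeats, and their sequences were not compared here, so the share of reads between them is uncertain.

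The remaining called genes were eff, whose log2 change in replicates B and C between 6 and 24 h was -0.92 ± 0.17 (limma adjusted p = 0.00214), Roc2, the RING partner of a cullin, with -1.76 ± 0.29 (limma adjusted p = 0.000635), and TER94, the ATPase that extracts ubiquitylated proteins, with -0.86 ± 0.22 (limma adjusted p = 0.0218). Over the 12 libraries these changes were -0.66 ± 0.25, -1.10 ± 0.35 and -0.59 ± 0.26 (limma adjusted p = 0.284, 0.215 and 0.344). In replicate A, eff was at 18199 at 6 h and 16605 at 24 h, Roc2 at 1167 and 1357, and TER94 at 4071 and 3904. In the 8 libraries of replicates B and C the median change of the 32 subunit signals was -0.22, and their adjusted p-values from 6 to 24 h were at least 0.0892. Uba1, the ubiquitin-activating enzyme, was lower by -0.60 ± 0.20 in these libraries (limma adjusted p = 0.0675) and by -0.34 ± 0.23 in all 12 (limma adjusted p = 0.552).

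In each list the genes with the smallest p for any change over the 12 libraries were the chaperone gene CG2046 and CG12096, Rad23 and Sem1, cnc and Nf-YA, CG40045 and Ubc2, Roc2 and CSN5, and Usp47 and CYLD. The smallest was that of Rad23, a shuttle that brings ubiquitylated proteins to the proteasome (limma unadjusted p = 0.00221, adjusted 0.359). Rad23 was at 47.4, 115 and 225 at 6 h, at 229.8, 341 and 264 at 12 h, at 82.4, 29.5 and 89.0 at 18 h, and at 643, 291 and 570.1 at 24 h. Its 24 h libraries lay above those of 6 and 18 h. The log2 change of Rad23 from 6 to 24 h was 2.14 ± 0.68 (SE, limma adjusted p = 0.211), and 1.34 in replicates B and C. Sem1, a small lid protein whose symbol the rule does not take, had means of 948 at 6 h and 590.0 at 24 h (-0.66 ± 0.32; limma adjusted p = 0.395). In replicates B and C the log2 change of Sem1 was -0.84. Transcripts of cnc, the fly relative of the mammalian factors that raise subunit transcription when the proteasome is inhibited, were at 1150.1, 1031 and 883 at 6 h and at 1516, 1237 and 1761 at 24 h. The log2 change of cnc was 0.55 ± 0.26 (SE; limma adjusted p = 0.367) and 0.63 in replicates B and C, the 24 h libraries lying above those of 6 h.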

How the data were processed

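MARS-seq, which reads the 3′ ends of transcripts after linear amplification, was used for the libraries, per the labels' protocols. HISAT 0.1.5, HOMER and bcl2fastq are named in the submitters' processing notes, with no role given; rules for multiply mapped reads, molecular identifiers and strand are not given in the sources used here. The deposited values are a normalised signal: the authors scaled reads to a total of 10000000 mapped reads, per the file headers. Every value was a whole multiple of the value of 1 read (100%, tolerance 0.02 reads), so reads could be recovered. Summed over genes they came to 99.3% to 101.7% of the mapped total of a library. Where the sum exceeds 100%, some reads were counted for more than 1 gene, and which genes share them is not known.

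Because the table holds normalised values, the planned count test gave way to limma 3.58.1 (R 4.3.3) with trend on log2(value + 1), 1 mean per time, Benjamini-Hochberg over all genes tested. Fold changes on this scale understate changes of low genes. edgeR 4.0.16 and DESeq2 1.42.0 on recovered reads were alternatives. The fit was checked on simulated reads with known changes, in which 1 scatter setting served all genes and no library stood apart. This check therefore does not measure the power of the test in these data. Precision is limited by 3 libraries per time and 1597241 to 3752666 mapped reads per library. Coordinates are those of the deposited table (dm6), counted from 1, and equal RefSeq for 46 of the 48 members; exon lengths came from the BDGP6 annotation. Values in every library are given for Prosbeta1, Prosbeta2, Prosbeta5, Rpn8, Rpn6 and the 3 subunit genes with the smallest p per comparison, and the 2 genes with the smallest p per pathway list are named; Rpt2, Rpt3, Rpt6, Rpn13, Prosalpha6, Prosalpha7 and the remaining pathway genes named were chosen after their values were seen. The members and lists were chosen with earlier results of these data known. Other marker lists gave summed levels of 1384 to 4906 (glia, 11 genes, mostly nrv2), 52.0 to 828 (hemocyte), 3.16 to 416 (fat body), 877 to 6832 (muscle, mostly bt), 52.0 to 405 (dividing cells), 1709 to 6475 (photoreceptor, mostly norpA) and 43.2 to 468 (testis). In the muscle list bt was at 864 to 6752, Tm2 reached 302 and Mhc was at 0 in every library. In the photoreceptor list norpA was at 1697 to 6395, ninaC reached 129, and Rh3 and Rh6 were at 0 in every library.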

Additional observations from a re-analysis of the deposited data

How the results depend on the processing

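The count of subunit genes called was 0 in all 5 comparisons under every alternative run: edgeR, DESeq2, a pseudocount of 10, median-ratio and TMM scaling, no filter, a stricter filter of 200, the replicate block, replicates B and C alone, and each of the 12 libraries left out. Counts over all genes moved, in the order 6 to 12, 12 to 18, 18 to 24, 6 to 24 h and any change: DESeq2 gave 3, 5, 23, 197 and 121 and replicates B and C 390, 25, 9, 702 and 658, against 0 with limma on 12 libraries. Leaving out 1 library gave 0 to 60, 0 to 1, 0 to 4, 0 to 676 and 0 to 506, the upper ends (60, 4, 676 and 506) when replicate A of 6 h was the library left out; leaving out replicate A of 12 h gave 3 between 18 and 24 h and 7 between 6 and 24 h. Median-ratio and TMM scaling gave 4 each from 18 to 24 h. The cause was not tested.

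The subunit median from 6 to 24 h was -0.32 to -0.18 when 1 library was left out, -0.15 to -0.03 for the step from 6 to 12 h and -0.05 to 0.08 for that from 12 to 18 h. From 18 to 24 h it was -0.25 to -0.13, -0.14 with median-ratio scaling, which moved the median of all genes from -0.11 to -0.01, and -0.079 in replicates B and C. Of 17 named log2 changes under 21 alternatives, 1 turned: Prosbeta5 from 6 to 24 h without replicate C of 6 h (0.0022); leaving out 1 library gave -0.19 to 0.0022. Subunit genes lower with no overlap, an alternative chosen after seeing the data, numbered 7, 2, 6 and 10 in replicates B and C for the 4 steps (18.1%, 19.8%, 23.3% and 23.7% of all genes), and 4, 1, 0 and 7 with median-ratio scaling (3.83%, 6.77%, 6.84% and 6.99%).

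The replicate letters gave no sign of pairing the libraries. Taken as deviations from the mean of each time, none of 18 same-letter pairs correlated above 0.1 (-0.34 to 0.07). By the same measure 1 of 12 libraries correlated best with its own letter. With 3 libraries per time this cannot show that the letters are unpaired. With the replicate block 0 subunit genes and 0 of all genes were called. Subunit genes had 92 to 1108 reads per library; depth was not varied, and reads may include copies of 1 molecule.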
